A study of Homo sapiens with 12 samples.

Results

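The SERTA-domain genes SERTAD1, SERTAD2, SERTAD3 and CDCA4 and the DCUN1D genes DCUN1D1, DCUN1D2, DCUN1D3, DCUN1D4 and DCUN1D5 were followed in OPM2 cells, a human multiple myeloma line, after 2 h with 1 of 3 inhibitors or the vehicle. These 9 genes, of 63152 gene identifiers in the count table, were chosen by measured values: SERTAD1 and DCUN1D3 stood among the transcripts raised most by JQ1 and by 18DS, and the other 7 are their relatives. The choice used the JQ1, 18DS and DMSO libraries, so the changes of the 9 genes in JQ1 or 18DS against DMSO are given as a description, with no test. The 4 groups were DMSO (the vehicle), JQ1 at 250 nM (an inhibitor of BET bromodomain proteins), BKM120 at 1 µM (a PI3K inhibitor) and 18DS at 250 nM, a compound known here only by that code name. Each group had 3 libraries, labelled as a biological triplicate of a single cell line, so the spread between libraries does not cover other myeloma lines. Libraries were QuantSeq 3′ mRNA libraries, which count a transcript by reads near its 3′ end. Levels are therefore given as CPM, the count relative to the library's total, without division by transcript length.

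Proteins with a SERTA domain are small nuclear co-regulators of transcription that meet E2F factors and the cell cycle machinery. SERTAD1, also called p34SEI-1, binds CDK4, the kinase that phosphorylates RB. DCUN1D proteins are scaffolds that help the NEDD8-loaded enzymes UBE2M and UBE2F pass NEDD8, a small ubiquitin-like protein, to cullins. NEDD8 on a cullin activates the cullin-RING ubiquitin ligase built on it, and the COP9 signalosome removes it again.

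The regions in front of the transcription starts are shown for the pair with the high values and for 1 relative of each, to let the families be read side by side. Each sequence is the 250 bases before an annotated start, 5′ to 3′ on the gene's strand, from RefSeq on GRCh38.p14, where all 9 genes had an entry. Capitals mark matches to 7 motifs searched on both strands: the GC box GGGCGG, the CCAAT box, the TATA box TATAAA, the cyclic AMP response element TGACGTCA, the AP-1 site TGACTCA, the E-box CACGTG and the ETS site CCGGAAGT. A motif on the other strand appears as its reverse complement, and matches that touch run together.
SERTAD1: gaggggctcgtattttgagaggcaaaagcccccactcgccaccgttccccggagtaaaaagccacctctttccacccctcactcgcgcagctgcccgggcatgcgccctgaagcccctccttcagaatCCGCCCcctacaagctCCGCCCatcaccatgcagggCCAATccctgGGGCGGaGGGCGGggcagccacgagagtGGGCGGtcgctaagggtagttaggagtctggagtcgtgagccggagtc
SERTAD3: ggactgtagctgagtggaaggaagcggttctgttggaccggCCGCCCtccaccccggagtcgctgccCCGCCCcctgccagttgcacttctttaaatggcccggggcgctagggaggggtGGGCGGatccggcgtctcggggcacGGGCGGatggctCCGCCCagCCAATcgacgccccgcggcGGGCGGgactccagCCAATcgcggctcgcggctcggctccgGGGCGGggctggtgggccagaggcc
DCUN1D3: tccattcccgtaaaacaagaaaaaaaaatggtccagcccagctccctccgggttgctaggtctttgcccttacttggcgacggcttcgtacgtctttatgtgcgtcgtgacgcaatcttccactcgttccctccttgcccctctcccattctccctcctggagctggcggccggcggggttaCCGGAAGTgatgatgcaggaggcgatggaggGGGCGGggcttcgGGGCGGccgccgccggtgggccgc
DCUN1D5: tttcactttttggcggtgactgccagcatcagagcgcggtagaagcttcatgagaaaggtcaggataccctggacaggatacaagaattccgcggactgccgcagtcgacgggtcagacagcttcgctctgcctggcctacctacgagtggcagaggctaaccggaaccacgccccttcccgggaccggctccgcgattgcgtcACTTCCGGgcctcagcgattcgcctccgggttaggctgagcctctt
All 4 lie on the minus strand of their chromosomes, SERTAD1 at chr19:40425993-40426242, SERTAD3 at chr19:40444336-40444585, DCUN1D3 at chr16:20900359-20900608 and DCUN1D5 at chr11:103092161-103092410.

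The SERTAD1 region held 5 GC boxes and 1 CCAAT box, and that of SERTAD3 7 GC boxes and 2 CCAAT boxes. The DCUN1D3 region held 2 GC boxes and 1 CCGGAAGT, 68 to 61 bases before the start. DCUN1D5 also held 1 CCGGAAGT, 46 to 39 bases before its start on the other strand, and no GC box. Of 35116 such regions, 42.6% held a GC box, 32.0% a CCAAT and 3.42% a CCGGAAGT. None of the regions of the 9 genes matched TATAAA (10.7% of all regions), TGACGTCA (1.65%), TGACTCA (4.20%) or CACGTG (6.34%). The GC box and CCAAT box of the SERTAD1 region were also found in that of SERTAD3. The DCUN1D3 and DCUN1D5 regions shared CCGGAAGT but not the GC box, and no other of the 9 genes held a CCGGAAGT. SERTAD1, SERTAD2, SERTAD3 and CDCA4 each had 2 exons in the annotated transcript used (12.8% of 19684 genes had that many or fewer), and DCUN1D3 had 3 exons against 7 to 11 in the other DCUN1D genes.

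Library totals ran from 5501895 to 7692013 counts. The 9 plasma cell markers listed all passed the expression filter and summed to 3210 to 3410 CPM in DMSO and BKM120 libraries and 2790 to 2860 CPM in JQ1 and 18DS libraries. That difference runs with the levels of SERTAD1 and DCUN1D3, and its part in them was not tested. The 9 markers did not move as 1: NSD2 was higher, at 639 CPM in DMSO, 808 in JQ1 and 856 in 18DS, and the DMSO and 18DS libraries overlapped for CD38 and MZB1. In bulk RNA, fewer cells of a type and less RNA per cell cannot be told apart. Markers of T and NK, myeloid, and stromal or epithelial cells summed to at most 3.40 CPM in any library. MYC and HEXIM1, whose transcripts respond to BET inhibitors in many cells, and KLF2, a transcription factor gene, differed between the groups: MYC was at 29.3 CPM in DMSO, 2.54 in JQ1, 51.3 in BKM120 and 2.51 in 18DS, HEXIM1 at 31.5, 99.4, 30.7 and 122 CPM, and KLF2 at 41.9, 49.5, 292 and 130 CPM. On principal component 3, 18DS library 2 scored 26.7 and the other 18DS libraries -13.7 and -9.33. Tested results of the 9 genes that rest on 18DS are also given without 18DS library 2 where that changed a call. So is the number of pathway genes called. Calls within single pathway lists, and on other genes, are given from all libraries only. All 9 genes passed the filter (about 10 counts, or 1.63 CPM, in at least 3 libraries), which left 13180 tested genes. SERTAD3 passed it through 2 DMSO libraries and 1 BKM120 library. SERTAD4, the remaining SERTA gene, reached only 4 counts over the whole table, too few for a test.

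SERTAD1 and DCUN1D3 were low in DMSO and BKM120 and high in JQ1 and 18DS. SERTAD1 stood at 2.65, 4.03 and 2.33 CPM in the 3 DMSO libraries and at 30.1, 33.8 and 32.8 CPM with JQ1. It stood at 2.09, 3.40 and 5.03 CPM with BKM120 and at 49.6, 55.7 and 55.4 CPM with 18DS. The 3 levels of expression did not touch: every 18DS library lay above every JQ1 library, and these above all DMSO and BKM120 libraries, which overlapped each other. The log2 fold change of SERTAD1 against DMSO was 3.42 (SE 0.19) with JQ1 and 4.15 (SE 0.18) with 18DS, from 3.00 CPM ± 0.900 (SD, n = 3) in DMSO.

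DCUN1D3, an N-myristoylated member of its family that can bring CUL3 to membranes, had the same order with a wider range. It stood at 1.62, 1.77 and 2.83 CPM in DMSO and 34.4, 41.3 and 39.2 CPM in JQ1. BKM120 libraries gave 0.483, 2.07 and 3.05 CPM, the lowest from 3 counts, and 18DS libraries gave 80.2, 70.6 and 89.5 CPM. No 18DS library overlapped a JQ1 library, and the DMSO and BKM120 libraries again overlapped. Its log2 fold change against DMSO was 4.21 (SE 0.23) with JQ1 and 5.27 (SE 0.21) with 18DS.

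By size of the log2 fold change over all tested genes, DCUN1D3 ranked 4 with JQ1 and 6 with 18DS, and SERTAD1 ranked 9 with both. The genes above DCUN1D3 were identifiers for which the name list gave no symbol. With JQ1 the identifier just above DCUN1D3 had 4.26 (SE 0.92) and the one just below it 4.09 (SE 0.45). Among the 9858 genes that averaged 5 CPM or more, DCUN1D3 ranked 2 with JQ1 and 4 with 18DS, and SERTAD1 ranked 5 with both. SERTAD2 came next among the 9 genes, at rank 177 with JQ1 and 174 with 18DS in that set.

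**Figure D1:**
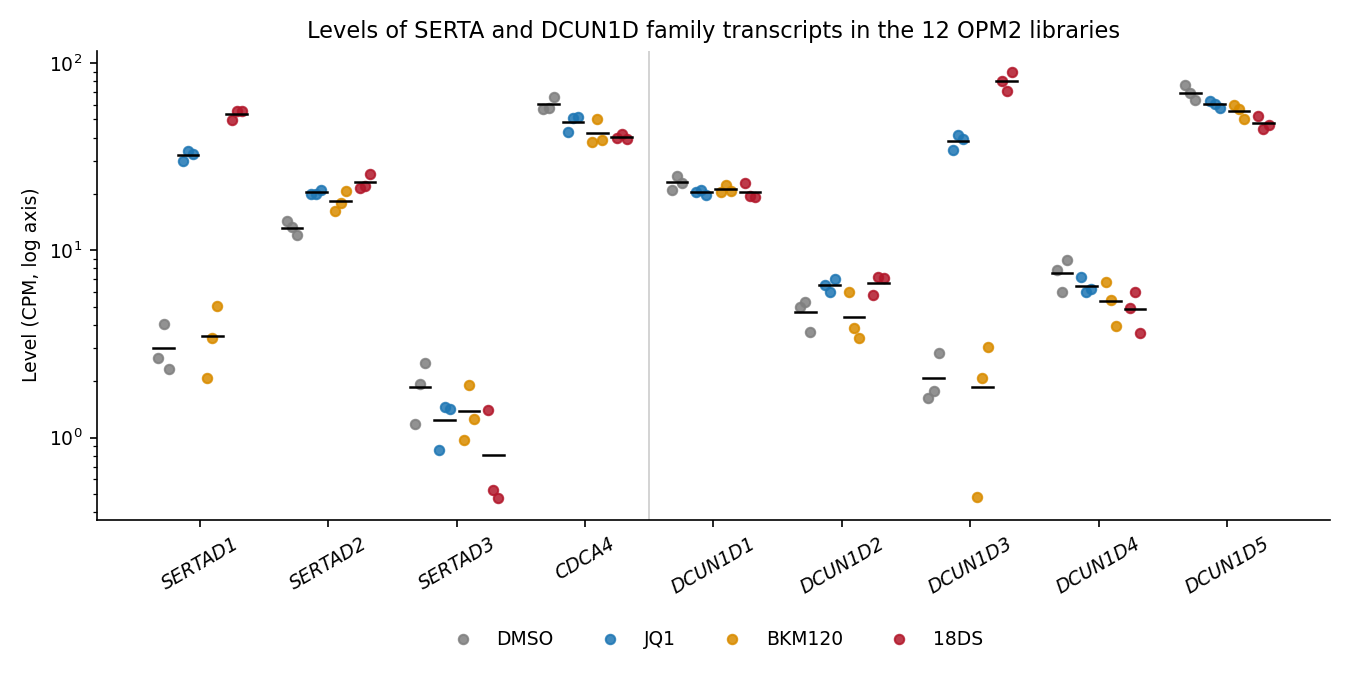
Level of each gene (CPM, log axis) in every library, with 1 point a library, colours for the 4 groups and black lines for group means. SERTAD1 and DCUN1D3 sit near 2 or 3 CPM in DMSO and BKM120 and between 30.1 and 89.5 CPM in JQ1 and 18DS. Of the relatives, DCUN1D1 spans 19.3 to 25 CPM and SERTAD3 0.474 to 2.50 CPM.

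Of the relatives, SERTAD2 alone was higher in every inhibitor group than in DMSO. SERTAD2, also called TRIP-Br2, is an E2F co-regulator. Its levels were 14.3, 13.4 and 12 CPM in DMSO and 20, 20 and 21.1 CPM in JQ1. BKM120 libraries gave 16.3, 18.0 and 20.7 CPM and 18DS libraries 21.6, 22.1 and 25.7 CPM. All 9 inhibitor libraries lay above the 3 DMSO libraries, and the JQ1 and BKM120 ranges overlapped. The log2 fold change of SERTAD2 was 0.62 (SE 0.14) with JQ1 and 0.80 (SE 0.14) with 18DS.

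CDCA4, a SERTA gene known as an E2F target, was lower in every inhibitor group. DMSO libraries held 57.0, 57.2 and 66.0 CPM and JQ1 libraries 43.0, 50.9 and 51.7 CPM. BKM120 libraries held 37.8, 50.5 and 39.0 CPM and 18DS libraries 40.0, 41.6 and 39.3 CPM. Every inhibitor library lay below the lowest DMSO library, with overlap between BKM120 and both other inhibitors. Against DMSO its log2 fold change was -0.30 (SE 0.11) with JQ1 and -0.57 (SE 0.11) with 18DS.

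SERTAD3, which lies next to SERTAD1 on chromosome 19 and on the same strand, did not share its rise. Its counts were 3 to 15 per library, and its levels 1.18, 1.93 and 2.50 CPM in DMSO against 0.860, 1.46 and 1.42 CPM in JQ1. BKM120 libraries gave 0.966, 1.92 and 1.26 CPM, and 18DS libraries 1.41, 0.527 and 0.474 CPM. All 4 groups overlapped in at least 1 library, and the log2 fold change with 18DS, -1.14, had an SE of 0.51.

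Among the DCUN1D relatives, DCUN1D5 had the clearest difference. Its levels were 76.1, 69.4 and 63.3 CPM in DMSO and 63.0, 60.4 and 57.4 CPM in JQ1. BKM120 libraries gave 59.9, 56.5 and 50.5 CPM and 18DS libraries 51.9, 44.2 and 46.6 CPM. Every inhibitor library lay below every DMSO library, and the 18DS libraries below every JQ1 library. Its log2 fold change against DMSO was -0.21 (SE 0.10) with JQ1 and -0.55 (SE 0.10) with 18DS.

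DCUN1D1, known as SCCRO and amplified in squamous carcinomas, varied least, between 19.3 and 25 CPM over the 12 libraries. DCUN1D2, its closest relative, averaged 4.66 CPM ± 0.877 (SD, n = 3) in DMSO, 6.51 ± 0.495 in JQ1, 4.40 ± 1.36 in BKM120 and 6.69 ± 0.794 in 18DS. The JQ1 and 18DS libraries of DCUN1D2 lay above the DMSO libraries, and its log2 fold changes were 0.48 (SE 0.25) and 0.51 (SE 0.24). DCUN1D4 averaged 7.53 CPM ± 1.46 in DMSO, 6.48 ± 0.653 in JQ1, 5.39 ± 1.41 in BKM120 and 4.84 ± 1.17 in 18DS, and its DMSO libraries overlapped with those of each inhibitor. Its log2 fold change with 18DS was -0.64 (SE 0.24), and -0.80 without 18DS library 2.

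The median log2 fold change of the 7 relatives was -0.21 with JQ1 and -0.55 with 18DS, beside a median of 0.00 over all tested genes in both. Single relatives ran from -0.55 to 0.62 with JQ1 and from -1.14 to 0.80 with 18DS, and SERTAD2 and DCUN1D2 were higher with both. The medians include SERTAD3, which passed the filter through DMSO and BKM120 libraries only, and this favours a lower value against DMSO. They were not tested, and no fall of the families is read from them.

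**Figure D2:**
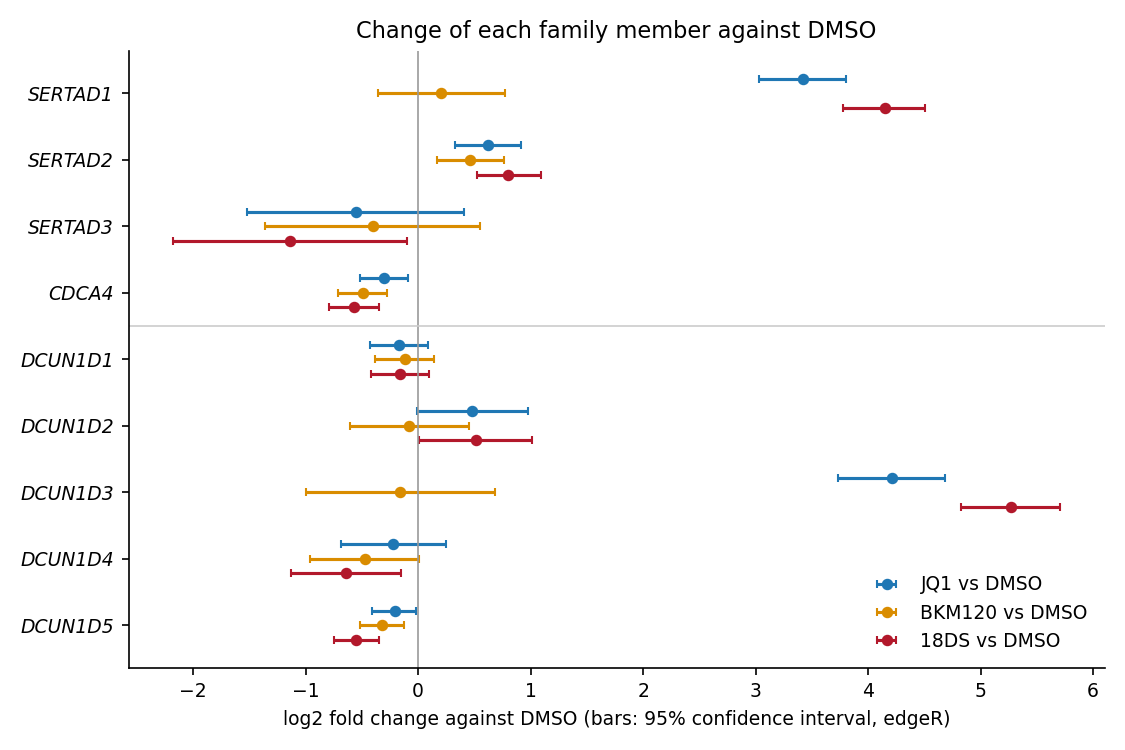
Log2 fold change of each gene against DMSO with JQ1, BKM120 and 18DS, with bars for 95% confidence intervals from edgeR. SERTAD1 and DCUN1D3 lie between 3.42 and 5.27 with JQ1 and 18DS and near 0 with BKM120, while the relatives lie between -1.14 and 0.80.

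The make-up of each family's counts changed with JQ1 and 18DS. SERTAD1 supplied 3.87% ± 1.26 (SD, n = 3) of the counts of the 4 SERTA genes in DMSO, 31.5% ± 0.769 in JQ1, 5.30% ± 2.07 in BKM120 and 45.4% ± 1.23 in 18DS. CDCA4 supplied 76.8% ± 2.59 in DMSO and 34.3% ± 1.57 in 18DS. DCUN1D3 supplied 1.96% ± 0.721 of the DCUN1D counts in DMSO, 29% ± 2.49 in JQ1, 2.18% ± 1.62 in BKM120 and 50.1% ± 3.34 in 18DS. DCUN1D5 went from 65.0% ± 2.98 in DMSO to 29.8% ± 1.65 in 18DS, so the least counted DCUN1D gene of the vehicle libraries became the most counted with 18DS. These shares contain the pair by which the genes were chosen and were not tested.

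Without SERTAD1, the SERTA genes summed to 75.1 CPM ± 4.62 (SD, n = 3) in DMSO, 70.1 ± 5.55 in JQ1, 62.1 ± 7.75 in BKM120 and 64.3 ± 1.27 in 18DS. Without DCUN1D3, the DCUN1D genes summed to 105 CPM ± 5.65 in DMSO, 93.7 ± 3.40 in JQ1, 86.6 ± 7.39 in BKM120 and 79.6 ± 5.01 in 18DS. The relatives' sums were thus no higher in any inhibitor group than in DMSO. With SERTAD1 and DCUN1D3 included, the sums in 18DS were 118 and 160 CPM against 78.1 and 107 CPM in DMSO.

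**Figure D3:**
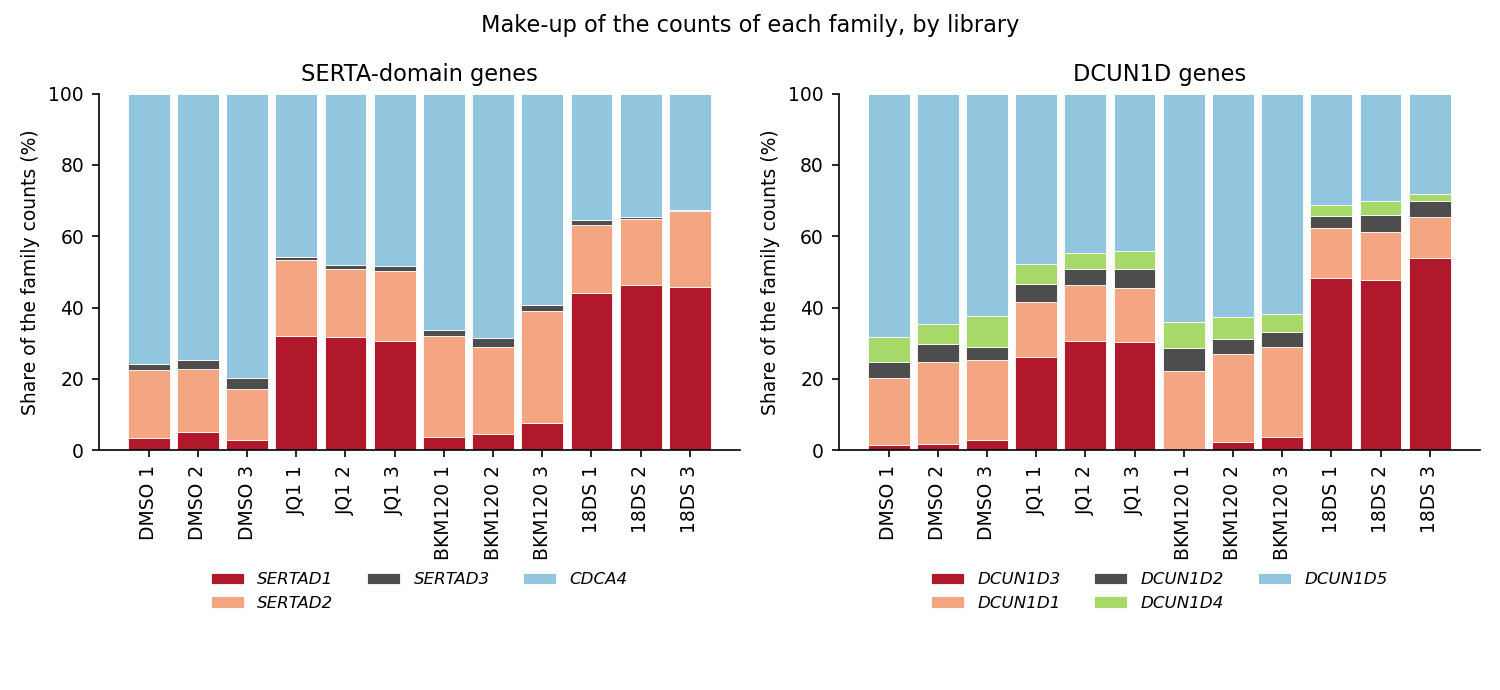
Share of each family's counts (%) that came from each gene, with 1 bar for each of the 12 libraries. SERTAD1 and DCUN1D3 (dark red) fill 30.6% to 46.4% and 26.1% to 53.9% of the bars in the JQ1 and 18DS libraries, and at most 7.63% and 3.74% in the others.

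BKM120 against DMSO asks whether inhibition of PI3K alone moves these genes, and neither SERTAD1 nor DCUN1D3 passed the test. The log2 fold change of SERTAD1 was 0.20 (95% confidence interval -0.36 to 0.77, edgeR adjusted p = 0.718), and that of DCUN1D3 was -0.16 (-1.0 to 0.68, adjusted p = 0.865). Neither interval reached the log2 changes of 3.42 and 4.21 seen with JQ1. Those changes and the DMSO libraries were part of the choice of the pair, so nothing is read from that gap. Leaving out 1 library at a time turned both directions: SERTAD1 stood at -0.12 without BKM120 library 3, and DCUN1D3 at 0.29 without BKM120 library 1 and at 0.11 without DMSO library 3.

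Among the relatives, BKM120 lowered CDCA4 and DCUN1D5 and raised SERTAD2. The log2 level of CDCA4 fell by 0.49 (SE 0.11), with an edgeR adjusted p of 0.00268, in 3 of 3 libraries, and passed the test without any 1 library and under every other setting tried. DCUN1D5 fell by 0.32 (SE 0.10, adjusted p = 0.0309), and SERTAD2 rose by 0.46 (SE 0.15, adjusted p = 0.0412), each in 3 of 3 libraries. At a Benjamini-Hochberg adjusted p under 0.05 over all tested genes, the threshold used throughout for a call, this gave 1 of 9 genes higher and 2 lower, where 4.07% of all tested genes were called higher and 4.14% lower (8.21% in all). With library totals the split was 0 higher and 2 lower, and it was 0 higher and 1 lower without DMSO library 1, DMSO library 2 or BKM120 library 3. The SERTAD2 call held in 6 of 10 other settings and in 4 of 12 fits without 1 library (adjusted p 0.0306 to 0.214 in those 12). It was lost without any DMSO library, any JQ1 library, or BKM120 library 2 or 3. The DCUN1D5 call held in 9 of 10 other settings. It held in 9 of 12 fits without 1 library (adjusted p 0.0146 to 0.196), and was lost without the same 3 libraries that lowered the count.

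JQ1 and 18DS were given at the same dose and time, and 18DS gave the higher level of both SERTAD1 and DCUN1D3. DCUN1D3 was 2.09-fold as high with 18DS as with JQ1, a log2 difference of 1.06 (SE 0.14, 95% confidence interval 0.78 to 1.35, edgeR adjusted p = 6.34e-05), higher in 3 of 3 libraries. SERTAD1 was 1.66-fold as high, a log2 difference of 0.73 (SE 0.13, 0.47 to 0.99, adjusted p = 0.000871), also in 3 of 3 libraries. Without 18DS library 2 the differences were 1.15 and 0.71. These libraries are those by which the pair was chosen, so this test is not independent of that choice.

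Of the relatives, only DCUN1D5 was called between JQ1 and 18DS. It was lower with 18DS by a log2 difference of -0.34 (SE 0.10, edgeR adjusted p = 0.0446). This call held in 5 of 12 fits without 1 library and in 4 of 10 other settings, and without 18DS library 2 the value was -0.28 (adjusted p = 0.171). It was also lost without 18DS library 3, DMSO library 2, BKM120 library 1 or any JQ1 library. CDCA4 differed by -0.27 (-0.49 to -0.05, adjusted p = 0.157) and SERTAD2 by 0.18 (-0.09 to 0.45, adjusted p = 0.487). DCUN1D1 and DCUN1D2 differed by 0.01 (-0.25 to 0.27) and 0.03 (-0.45 to 0.50). SERTAD3 differed by -0.59 (-1.70 to 0.53) and DCUN1D4 by -0.42 (-0.93 to 0.08). Both intervals lie below the rise of SERTAD1, 0.73, but they are wide enough to hold a fall of that size. Of the 7 relatives, 0 were called higher and 1 lower, where 2.37% of all tested genes were called higher and 1.78% lower (4.16% in all). The 2 of 9 genes called higher were SERTAD1 and DCUN1D3. They were chosen on these libraries, so their calls are not set beside that share.

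BKM120 was given at 1 µM and the other compounds at 250 nM, so their levels are set side by side without a comparison of potency. SERTAD1 averaged 3.51 CPM ± 1.47 (SD, n = 3) with BKM120, 32.2 ± 1.92 with JQ1 and 53.6 ± 3.43 with 18DS. DCUN1D3 averaged 1.87 CPM ± 1.3 with BKM120, 38.3 ± 3.54 with JQ1 and 80.1 ± 9.48 with 18DS. SERTAD1 and DCUN1D3 were the 2 of 9 genes called, both higher, in 18DS against BKM120 (11.3% of all tested genes called, 4.64% higher) and in JQ1 against BKM120 (14.6%, with 7.19% higher). The pair was chosen on the JQ1 and 18DS libraries in these comparisons, so nothing is read from these calls.

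A further contrast asked whether the log2 change with 18DS departed from the sum of those with JQ1 and BKM120. It uses the JQ1, 18DS and DMSO libraries by which SERTAD1 and DCUN1D3 were chosen and is not independent of that choice. DCUN1D3 exceeded that sum by 1.23 (SE 0.43, 95% confidence interval 0.33 to 2.12), with an unadjusted p of 0.00914 and an edgeR adjusted p of 0.387. SERTAD1 exceeded it by 0.53 (-0.10 to 1.16, adjusted p = 0.739). By edgeR 0 of 9 genes were called, where 0.121% of all tested genes were, and DCUN1D3 was the 1 gene with an unadjusted p under 0.05. DESeq2 and limma-voom also called 0. The departure of DCUN1D3 lay at 0.78 without BKM120 library 1, which held 3 of its counts, and at 1.72 without BKM120 library 3.

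Several genes next to SERTAD1 and DCUN1D3 were measured as well. Neighbours were read from the GENCODE 29 annotation, which is on another build than the counts and served only for gene order and strand. DCUN1D3 overlaps ERI2 on its own strand and LYRM1 on the opposite strand, and REXO5 lies downstream. With JQ1 and 18DS the log2 fold changes against DMSO were 0.22 and 0.14 for LYRM1, -0.22 and -0.47 for ERI2, and 0.10 and 0.15 for REXO5, and none passed the test. PRX, downstream of SERTAD1, had 53 counts and was not tested.

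Of 26 genes outside the 9 that neighbour or overlap them, 12 were tested. BLVRB, upstream of SERTAD3, was the only one of the 12 called in any of the 7 comparisons, at 0.42 (SE 0.14, edgeR adjusted p = 0.0323) in 18DS against DMSO. In that comparison 21.0% of all tested genes were called, 9.96% higher. The shares in the other comparisons ran from 0.121% to 14.6%. With 12 genes, nothing is read from the difference from these shares. The strand setting of the counting is not given in the sources used here, so reads of DCUN1D3 and LYRM1, or of CDCA4 and CLBA1 on its opposite strand, cannot be told apart where they overlap. No other identifier had counts within 5% of those of any of the 9 genes, and the annotated CDCA4 pseudogenes had 0 counts.

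**Figure D4:**
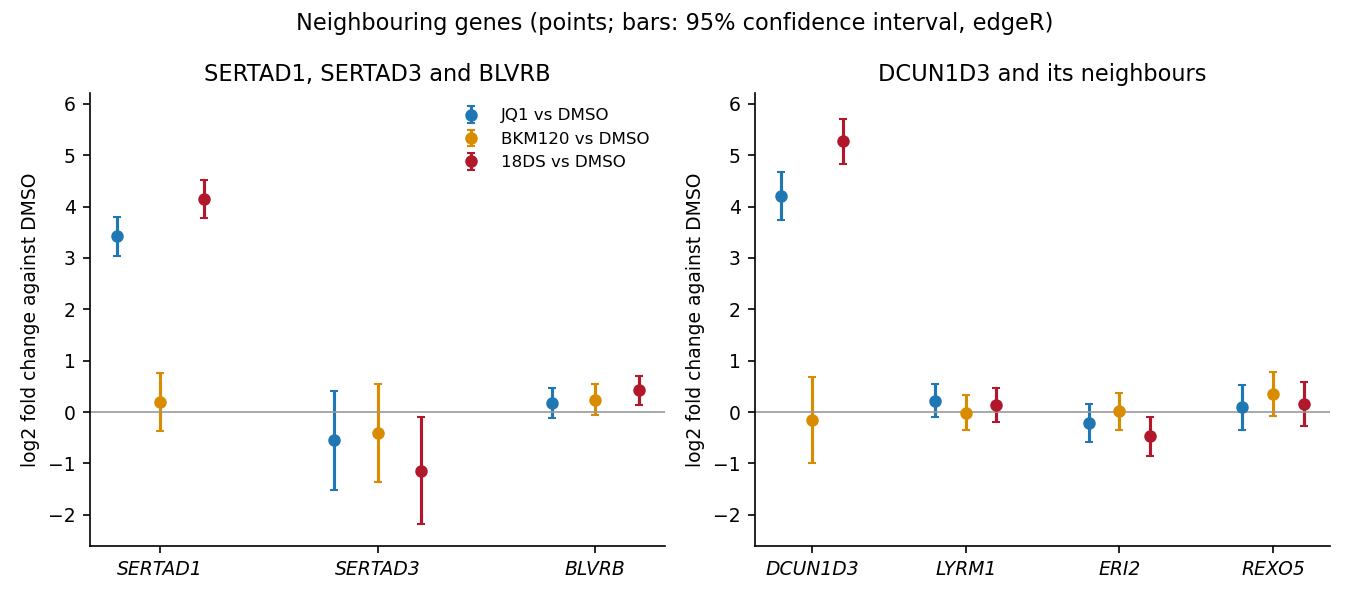
Log2 fold change against DMSO of SERTAD1 and DCUN1D3, of tested genes next to or overlapping them, and of BLVRB, which is next to SERTAD3, with bars for 95% confidence intervals from edgeR. SERTAD1 and DCUN1D3 lie at 3.42 to 5.27 with JQ1 and 18DS, the neighbours of the pair between -1.14 (SERTAD3) and 0.22 (LYRM1), and BLVRB at 0.17 and 0.42.

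The genes whose levels ran most like those of SERTAD1 and DCUN1D3 over the 12 libraries were looked up as a description. Likeness was Pearson's r of log2 CPM, against 9857 other genes averaging 5 CPM or more, and it follows the differences between the 4 groups. SERTAD1 and DCUN1D3 were both chosen for their rise in the same libraries, so their likeness to each other comes with the choice. The genes most like SERTAD1 were H2BC12 (r = 0.988), a histone H2B gene, SESN2 (0.986), a stress-induced regulator of mTORC1, DCUN1D3 (0.986), FAM53C (0.985) and ENC1 (0.982). Those most like DCUN1D3 were SERTAD1, IER5 (0.983), an immediate early response gene, H2BC5 (0.981), SAT1 (0.975), the spermidine acetyltransferase, and 1 identifier without a symbol (0.973). SESN2 averaged 13.7 CPM in DMSO, 38.1 in JQ1, 15.5 in BKM120 and 49.5 in 18DS. IER5 averaged 56.0, 151, 45.2 and 179 CPM in the same order. Within the 9 genes, SERTAD1 had r = 0.82 with SERTAD2 and -0.61 with DCUN1D5 over 12 libraries.

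The pathways in which these families act were followed with 72 genes, of which 69 were tested. These lists were chosen with earlier results of these data known. The shares called, here and for the single lists below, are thus a description, and nothing is read from their difference from all genes. In BKM120 against DMSO 3 rose and 2 fell (7.25% called, beside 8.21% of all genes), and in 18DS against JQ1 1 rose and 5 fell (8.70%, beside 4.16%). Against DMSO, 1 rose and 5 fell with JQ1 (8.70%, beside 6.08% of all genes, 2.63% higher and 3.45% lower), and 8 rose and 15 fell with 18DS (33.3%, beside 21.0% of all genes, 9.96% higher and 11.0% lower). The 18DS count against DMSO fell from 23 to 16 without 18DS library 2 or 18DS library 3. The BKM120 count was 8 (6 higher and 2 lower) with upper-quartile scaling, and from 1 (without DMSO library 2 or BKM120 library 3) to 11 (without BKM120 library 2). The 18DS against JQ1 count was 1 without 18DS library 2 or JQ1 library 3 and 10 without 18DS library 1. Every median log2 fold change of the whole list lay between -0.06 and 0.04.

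The tested genes of the NEDD8 list were NEDD8, NAE1, UBA3, UBE2M, UBE2F, RBX1, RNF7, GLMN and NUB1. Among them UBE2M and UBE2F are the enzymes with which DCUN1D proteins act. Of 9 tested, 2 rose and 0 fell with 18DS against DMSO, NEDD8 by 0.35 (SE 0.10) and NAE1, a subunit of the NEDD8-activating enzyme, by 0.23 (SE 0.08), with edgeR adjusted p of 0.00801 and 0.0407. By edgeR 0 of the 9 were called with JQ1 against DMSO, where 0 had an unadjusted p under 0.05, or with BKM120, where 3 did. Of 10 cullins and exchange factors, 2 fell with 18DS: CAND2, a factor that exchanges cullin adaptors, by 0.89 (SE 0.20) and CUL5 by 0.45 (SE 0.12). Of 10 COP9 signalosome subunits, 2 fell with 18DS: COPS2 by 0.35 (SE 0.12) and COPS3 by 0.23 (SE 0.09). The share called with 18DS in each of these 3 lists was near the 21.0% called among all tested genes. CAND2 also fell with 18DS against JQ1, by 0.82 (SE 0.20, adjusted p = 0.0150). The number of pathway genes called in that comparison went from 6 to 1 without 18DS library 2, and which call stayed is not given.

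Among 14 cullin adaptors, 2 fell with JQ1: KEAP1, the CUL3 adaptor for NRF2, by 0.50 (SE 0.09) and SPOP, another CUL3 adaptor, by 0.32 (SE 0.08). With 18DS 2 rose and 3 fell: ELOB and SKP1 both rose by 0.31 (SE 0.08 each), and KEAP1 fell by 0.43 (SE 0.09). With BKM120 2 rose: DTL by 0.34 (SE 0.11) and ELOB by 0.25 (SE 0.08). Of all tested genes, 3.45% were called lower with JQ1, 9.96% higher and 11.0% lower with 18DS, and 4.07% higher with BKM120.

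The CDK4, RB and E2F genes, among which SERTAD1 acts, were the longest list. Of 20 tested, 1 rose and 2 fell with JQ1, 3 rose and 7 fell with 18DS, and 1 rose and 2 fell with BKM120. Among all tested genes, 2.63% were called higher and 3.45% lower with JQ1. The shares were 9.96% and 11.0% with 18DS and 4.07% and 4.14% with BKM120. E2F2, an activating E2F, fell by 0.69 (SE 0.09) with JQ1 and by 0.83 (SE 0.09) with 18DS, and CDKN2D, an inhibitor of CDK4 and CDK6, rose by 0.82 (SE 0.13) and 0.95 (SE 0.13). E2F8 fell by 1.04 (SE 0.28) with JQ1, E2F6 by 1.11 (SE 0.16) with 18DS, and CCND2, a D-type cyclin that activates CDK4, by 0.84 (SE 0.10) with BKM120. Against JQ1, 18DS lowered 4 and raised none of the 20, among them CCND2 by 0.50 (SE 0.10), E2F6 by 0.66 (SE 0.16) and E2F4 by 0.45 (SE 0.13). In that comparison 1.78% of all tested genes were called lower. Over all pathway lists, the number called there went from 6 to 1 without 18DS library 2. Of 6 known partners of SERTA proteins, TRIM28, a co-repressor, rose by 0.58 (SE 0.10) with 18DS, CREBBP, a histone acetyltransferase, fell by 0.36 (SE 0.13), and XPO1, the nuclear exporter, fell by 0.30 (SE 0.09) with JQ1.

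**Figure D5:**
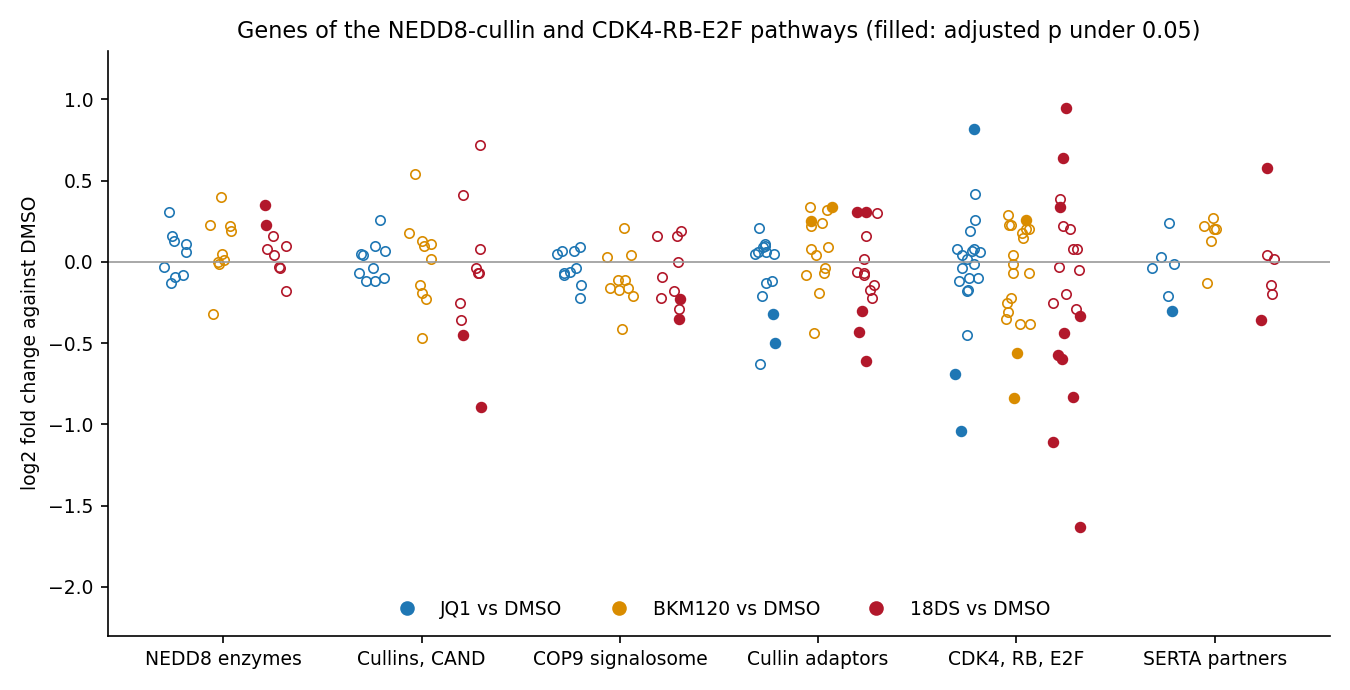
Log2 fold change against DMSO of the tested genes of 6 groups (1 point a gene, colours for the inhibitor, filled where the edgeR adjusted p was under 0.05). All points lie between -1.63 (E2F8 with 18DS) and 0.95 (CDKN2D with 18DS).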

How the data were processed

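QuantSeq 3′ mRNA libraries of OPM2 cells, 3 for each of 4 groups, were analysed from a table of whole-number counts for Ensembl identifiers. The authors deposited these counts without normalization, in a column for each library. Per the submitters' processing notes, reads were handled with HISAT2 2.1.0 and featureCounts (Subread) on hg19, and cutadapt 1.7 and SAMtools 1.9 are also named. How multi-mapping reads were treated, and with which annotation, is not given in the sources used here, and reads shared by similar genes may be lost or split.

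The reference table of gene symbols matched 51662 of 63152 identifiers. Counts were fitted in R 4.3.3 with edgeR 4.0.16 (filterByExpr by group with a minimum count of 10, TMM scaling factors of 0.971 to 1.033, robust quasi-likelihood test), in 1 fit over the 12 libraries, and p-values were adjusted over the 13180 tested genes. Intervals are 95%. Levels of genes at a few counts, such as SERTAD3, are limited by counting error. The alternatives were 3 other scalings, DESeq2 1.42.0, limma-voom (limma 3.58.1), edgeR without the robust option, 2 other filters, a fit on the compared groups alone, the replicate number as a block, and 12 fits without 1 library each. The scripts were tested on simulated counts with set changes between JQ1 and DMSO. At an adjusted p under 0.05, 15 of 153 edgeR calls were false (9.80%), more than that threshold aims at. Of the set changes, 41.8% of those of 1.50-fold were recovered, 75.0% of those of 2-fold and 95.4% of those of 4-fold. Small changes were thus missed most often. False calls were not counted by size of change, so the certainty of a call on a small change is not known from this.

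The 9 genes and the pathway lists were chosen with earlier results of these data known. The text names the 9 genes in every comparison, SERTAD4, up to 3 called genes with the smallest adjusted p from each list and comparison, the 5 genes most like SERTAD1 and most like DCUN1D3, neighbouring genes, and MYC, HEXIM1 and KLF2. Same-numbered libraries did not deviate together (r from -0.13 to 0.09 over 18 pairs), so the replicate numbers were not taken as pairs.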

Additional observations from a re-analysis of the deposited data

How the results depend on the processing

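In 18DS against JQ1, SERTAD1 and DCUN1D3 stayed called in the 10 other settings and the 12 fits without 1 library. Without 1 library the log2 difference ranged from 0.98 to 1.15 for DCUN1D3 and from 0.70 to 0.80 for SERTAD1. The pair was chosen for its high values in these libraries, so calls that stay are not independent of that choice and nothing is read from them. Against DMSO with BKM120, the values without 1 library ran from -0.65 to 0.29 for DCUN1D3, from -0.12 to 0.46 for SERTAD1 and from -0.36 to 0.06 for DCUN1D2, all uncalled. The number of the 9 genes called with BKM120 ran from 1 to 3 without 1 library. Values that crossed 0 were uncalled throughout. In 18DS against BKM120 they ran, without 1 library, from -0.15 to 0.08 for CDCA4, -0.12 to 0.01 for DCUN1D1 and -0.33 to 0.03 for DCUN1D4. In 18DS against JQ1 they ran from -0.06 to 0.06 for DCUN1D1 and -0.03 to 0.14 for DCUN1D2, which stood at -0.03 and -0.02 with library totals. In JQ1 against BKM120 SERTAD3 ran from -0.36 to 0.18. The departure from the sum ran from -0.02 to 0.40 for DCUN1D2, -0.11 to 0.25 for DCUN1D4, -0.07 to 0.05 for DCUN1D5 (0.01 with no expression filter) and -0.88 to 0.15 for SERTAD3.

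The number of pathway genes called in BKM120 against DMSO was 8 with upper-quartile scaling, 3 with DESeq2 and 3 with limma-voom, and 1 to 11 without 1 library. In 18DS against JQ1 it was 3 with limma-voom and 1 to 10 without 1 library. Without 1 library it ran from 3 to 7 in JQ1 against DMSO and from 6 to 13 in JQ1 against BKM120. The cause of these shifts was not tested. With the replicate number as a block, 18DS against JQ1 was 0.73 for SERTAD1 and 1.07 for DCUN1D3, and no call on the 9 genes changed. By likeness of deviations, 4 of 12 libraries correlated best with their own number. Depth limited SERTAD3, with 3 to 15 counts a library, more than the other 8 genes.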
